A study of Mus musculus with 10 samples.

Results

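The insulin-like growth factor (IGF) axis was followed through 10 genes: the ligand Igf1, its receptor Igf1r, the binding proteins Igfbp2, Igfbp3, Igfbp4, Igfbp5, Igfbp6 and Igfbp7, and the receptor substrates Irs1 and Irs2. They were found by gene symbol in the platform annotation and are 10 of the 12393 genes with a probe set of their own on the array. They had 21 probe sets, a probe set being a group of short oligonucleotides that together read 1 transcript. Of these, 14 were bright enough to be tested, and they covered 9 of the genes; Igfbp3 was the exception.

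Expression was measured on 10 Affymetrix arrays in mouse embryonic fibroblasts, connective tissue cells cultured from embryos. Cells of 4 groups had lost G9a, a histone H3 methyltransferase encoded by Ehmt2, and had received an empty vector (called delta) or a FLAG-tagged G9a: the wild-type protein (WT), its K165A form, or its H1093K form, a catalytic mutant by the labels. The fifth group is titled only as G9a deleted, and the sources used here do not say whether its cells carried a vector. Each group had 2 arrays, numbered 1 and 2, and nothing states that they came from separate cultures, so the p-values cover the spread among these arrays alone, and that spread may be technical. How G9a was deleted, and whether a group was 1 clone, is not given either. By its title the series is about methylation of G9a itself at a site like one in histone, so the comparisons ask how each form of G9a altered expression relative to the empty vector and how the mutants differed from wild type.

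IGF1 and IGF2 are secreted growth factors that bind the IGF1 receptor, a tyrosine kinase. The activated receptor phosphorylates the docking proteins IRS1 and IRS2, which recruit the PI3 kinase and AKT pathway and promote growth and survival. Secreted binding proteins hold the ligands outside the cell and can limit or prolong their access to the receptor, and proteases such as PAPP-A release the ligands again. Fibroblasts both make these secreted proteins and respond to the ligands, and embryonic fibroblasts are a classical model of IGF1 receptor signalling.

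The deposited signals had a trimmed mean of 500.1 to 500.2 on every array and medians of 181.1 to 199.6, and within groups Pearson's r between arrays was 0.984 to 0.989. Ehmt2 read 473 and 415 on the delta arrays, 676 and 620.4 in WT, 704 and 725 in K165A, 461 and 494 in H1093K, and 1678 and 1750 on the arrays labelled deleted. The highest Ehmt2 level thus lay on the arrays labelled deleted, which goes against that label. Those values are of the brighter Ehmt2 probe set, by which H1093K lay below WT in limma (-0.43, adjusted p = 0.0185). Its H1093K difference from delta, 0.105 (adjusted p = 0.737), did not pass. The dimmer probe set was not tested. On it the H1093K arrays read 116 and 55.65, above those of delta (7.13 and 36.5) and overlapping WT (40.9 and 106). The arrays labelled deleted, at 162 and 247, there overlapped K165A, at 90.4 and 178. Whether the probes read the deleted part of the gene or the introduced forms was not tested. Vim, Col1a2, Fn1 and Col1a1, fibroblast markers, read 7011 or more on every array. The fibroblast genes Dcn and Lum read 5.28 to 54.0 and 12.3 to 28.3 in the 4 vector groups, and 1357 and 1519, and 53.9 and 41.1, on the arrays labelled deleted. Summed over 8 listed epithelial genes, the signal was 4140 and 3829 in delta, 1242 and 1139 in WT, 1167 and 1015 in K165A, 2917 and 2683 in H1093K, and 4672 and 4539 on the arrays labelled deleted. Of these, 4 were tested, and 3 fell in WT and in K165A, 0 changed in H1093K, and 2 rose and 1 fell on the arrays labelled deleted, all against delta. Epcam, also on the epithelial list, stayed at 4.03 to 35.9 throughout. The sums in delta and on the arrays labelled deleted were near in size but drew largely on different genes. Krt7 had means of 2609 in delta and 98.0 on the arrays labelled deleted, and Krt18 of 568 and 2071. Of 14 fibroblast genes 11 were tested, and 5 rose and 1 fell in WT, 4 rose and 1 fell in K165A, and 6 rose and 1 fell on the arrays labelled deleted; their sum ran from 46438 to 65967. Of 8 smooth muscle genes 5 were tested, and 3 fell in WT, 3 in K165A, 0 in H1093K and all 5 on the arrays labelled deleted. Among them Actg2 had means of 552 in delta, 54.1 in WT, 42.0 in K165A and 647 in H1093K. Those of Cnn1 were 1055, 554, 549 and 854. Both, like Tagln, split WT and K165A from delta and H1093K, as Igf1, Igfbp2, Igfbp4, Igfbp7 and Irs1 did. Acta2 (10600, 9225, 9552 and 9790) and Smtn (421.8, 456.5, 421.5 and 461.5) did not. Over 8 leukocyte genes the sum was 555 to 704, and over 8 endothelial genes 273 to 415, on all arrays. In bulk RNA, fewer cells of a type and less RNA per cell cannot be told apart, and the part of the epithelial, fibroblast and smooth muscle marker shifts in the IGF axis results was not tested.

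Upstream sequence is shown for 4 genes because they stand for the 4 patterns described next: Igfbp2, which rose most with wild-type G9a, Irs1, which rose with little spread, Igfbp7, which fell, and Igfbp6, which differed little among the 4 vector groups and read high on the arrays labelled deleted. Each is the 250 bases before an annotated transcript start in RefSeq GRCm38.p6, 5′ to 3′ on the gene's strand. Capitals mark GGGCGG or its reverse complement CCGCCC, the core of the GC box, and TATAAA or its reverse complement TTTATA, the TATA box letters. The windows are chr1:72824230-72824479 on the plus strand for Igfbp2, chr1:82291440-82291689 on the minus strand for Irs1, chr5:77408046-77408295 on the minus strand for Igfbp7 and chr15:102143936-102144185 on the plus strand for Igfbp6.
Igfbp2: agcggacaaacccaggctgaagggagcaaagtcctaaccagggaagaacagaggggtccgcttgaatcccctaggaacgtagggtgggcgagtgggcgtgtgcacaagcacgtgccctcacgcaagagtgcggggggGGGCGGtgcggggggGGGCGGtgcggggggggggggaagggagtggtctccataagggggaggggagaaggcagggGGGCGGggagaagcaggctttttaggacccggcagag
Irs1: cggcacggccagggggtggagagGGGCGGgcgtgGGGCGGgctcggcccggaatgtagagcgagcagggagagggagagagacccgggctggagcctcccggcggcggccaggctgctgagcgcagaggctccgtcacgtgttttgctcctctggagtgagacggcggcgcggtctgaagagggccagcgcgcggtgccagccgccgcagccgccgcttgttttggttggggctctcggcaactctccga
Igfbp7: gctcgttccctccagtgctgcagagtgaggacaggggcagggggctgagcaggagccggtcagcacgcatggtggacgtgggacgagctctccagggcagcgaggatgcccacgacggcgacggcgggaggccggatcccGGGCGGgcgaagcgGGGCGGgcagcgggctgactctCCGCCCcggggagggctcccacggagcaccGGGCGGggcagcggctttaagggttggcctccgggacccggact
Igfbp6: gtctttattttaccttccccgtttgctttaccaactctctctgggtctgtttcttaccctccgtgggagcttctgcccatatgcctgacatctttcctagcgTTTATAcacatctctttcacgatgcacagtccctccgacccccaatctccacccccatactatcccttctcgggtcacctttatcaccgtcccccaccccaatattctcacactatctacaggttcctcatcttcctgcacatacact
The Igfbp2 window holds GGGCGG 3 times, the Irs1 window 2 times and the Igfbp7 window 4 times, counting both strands, while the Igfbp6 window holds none and has TTTATA once. All 10 genes matched the RefSeq table, with 11 windows, of which 5 hold GGGCGG and 2 hold TATAAA on either strand. Among the 32851 windows of that length in the table, 32.7% hold GGGCGG and 12.4% hold TATAAA. The CpG dinucleotide occurs 14 times in the printed Igfbp2 window, 28 times in Irs1, 26 times in Igfbp7 and 7 times in Igfbp6, against a median of 6 over all windows (quartiles 2 and 16). The other Igfbp2 window and those of Igf1 and Igfbp4, which also rose, hold no GGGCGG, so these letters did not sort the genes that rose from the one that fell. Igfbp2 and Igfbp5 are neighbours on chromosome 1, with no other protein-coding gene between them in RefSeq.

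**Figure D1:**
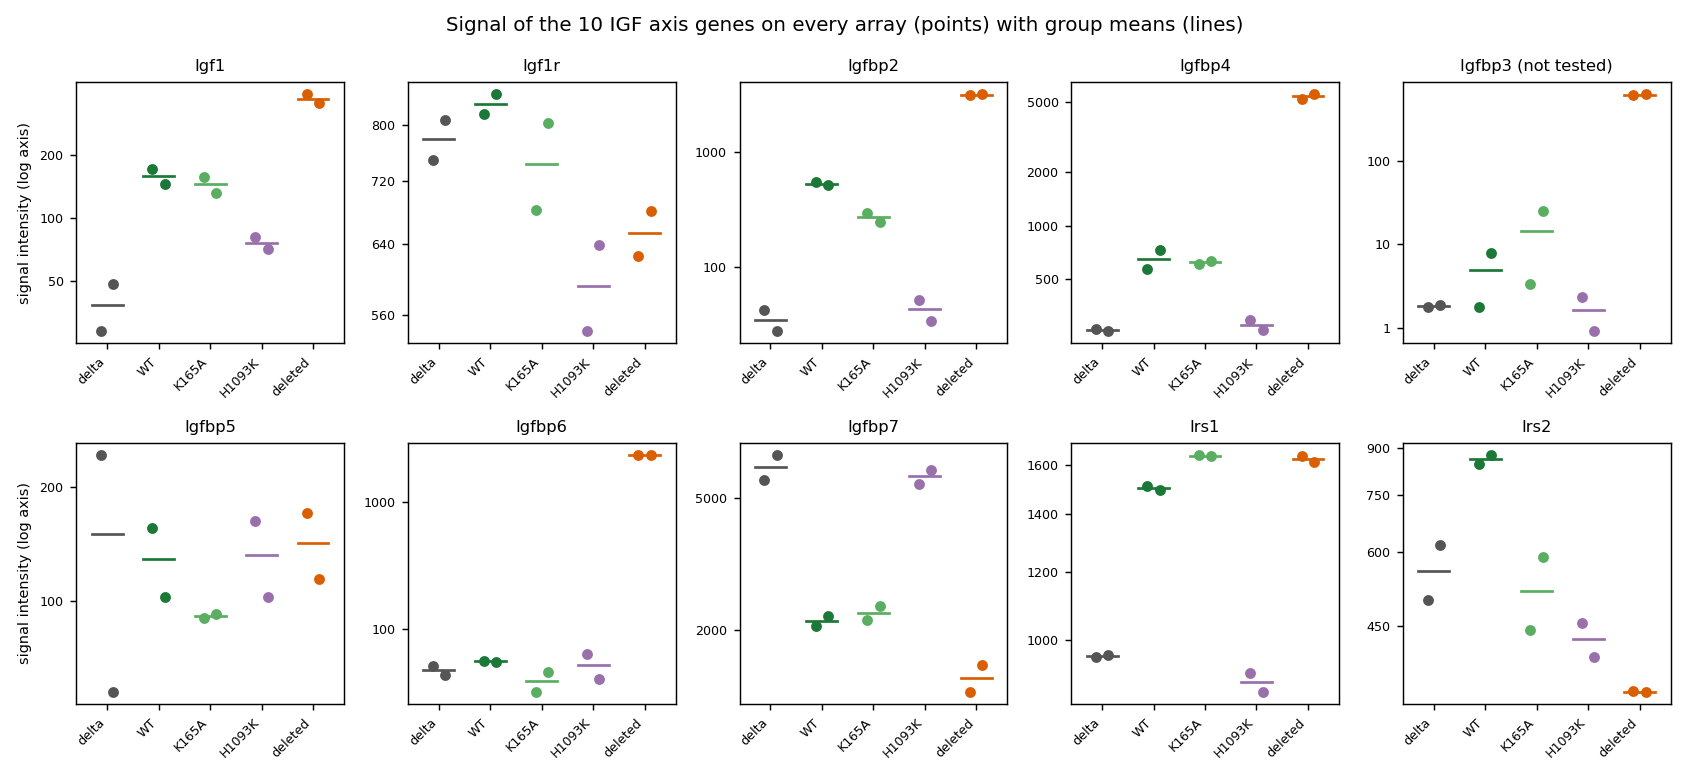
Signal intensity of each of the 10 IGF axis genes on every array, on log axes that differ between panels, with 1 point per array, a line at each group mean, and the probe set of highest mean log2 signal for each gene. Igf1, Igfbp2, Igfbp4 and Irs1 lie higher in WT and K165A than in delta and H1093K, Igfbp7 lies lower, and Igfbp2, Igfbp3, Igfbp4 and Igfbp6 are highest on the arrays labelled deleted.

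With wild-type G9a, Igf1, Igfbp2, Igfbp4, Irs1 and Irs2 rose over the empty vector and Igfbp7 fell, by 1.54-fold to 10.8-fold. With K165A, Igf1, Igfbp2, Igfbp4 and Irs1 rose and Igfbp7 fell, while with H1093K none of the 9 tested genes passed the test. A difference is given as log2(signal + 16), a scale that understates changes of dim probe sets, and passed at a limma adjusted p under 0.05. In WT against delta, 9 of the 14 member probe sets rose and 1 fell, where 11.9% of all probe sets passed (5.42% higher and 6.48% lower; 20.7% with the replicate number as a block). In K165A against delta, 8 rose and 1 fell, where 11.3% of all passed (4.99% higher and 6.28% lower; 19.7% with the block). In H1093K against delta, 0 passed by limma, where 0.818% of all did (0.449% higher and 0.368% lower; 3.47% with the block), and 3 of 14 had an unadjusted p under 0.05, as did 1606 of all 13575 (11.8%). Over the 14 member probe sets the median difference was 0.76 in WT, 0.84 in K165A and 0.08 in H1093K, and over the 9 genes, where Igfbp4 and Igf1 count once, it was 0.62, -0.07 and 0.07, so that the K165A median turned its sign. These stand against -0.003, 0.005 and -0.002 over all probe sets. In the F test for any difference among the 4 vector groups, 10 of 14 passed, where 11.6% of all did (22.2% with the block), and those that did not were Igf1r, Igfbp4 by 1421992_a_at, Igfbp5 and Igfbp6. The comparisons with delta share its arrays, so their likeness is no separate evidence. Members were chosen with earlier results of these data known, so their counts beside these shares, here and below, are no test of the IGF axis. Among the 9 that rose in WT, 4 were probe sets of Igfbp4. Of the 14 probe sets, 11 would also be bright enough without the arrays labelled deleted; both Igf1 probe sets and that of Igfbp6 owe their place to those arrays.

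**Figure D2:**
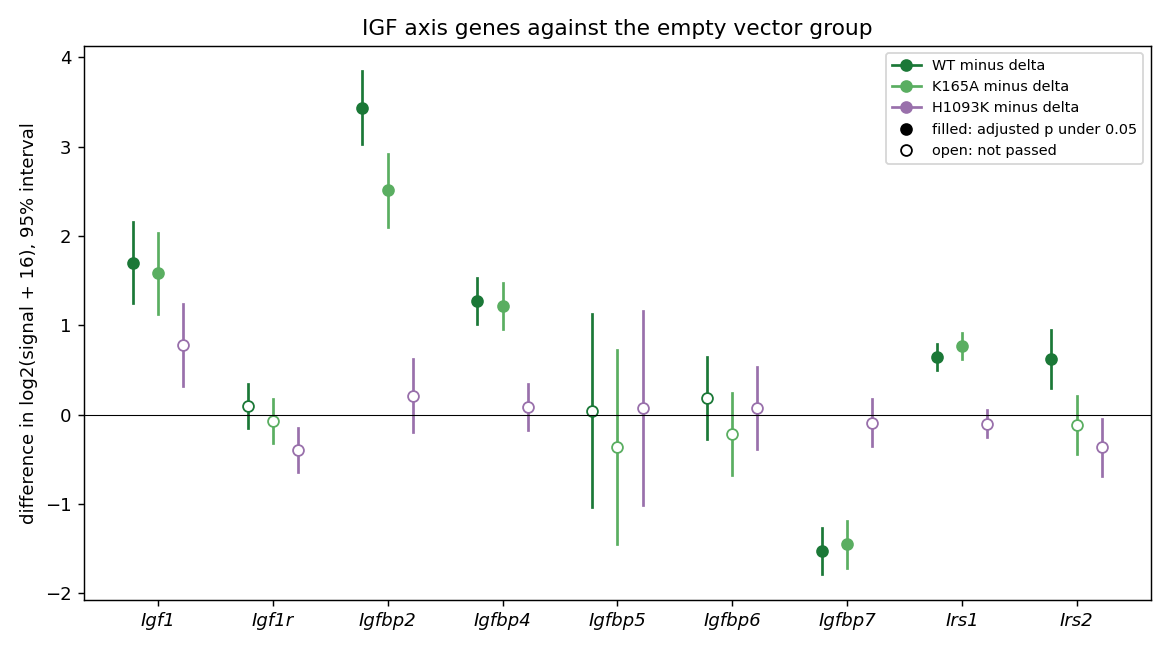
Difference in log2(signal + 16) of WT, K165A and H1093K from the empty vector group for the 9 tested genes, with 95% intervals from limma and filled points where the adjusted p passed 0.05. Filled WT points are Igf1, Igfbp2, Igfbp4, Igfbp7, Irs1 and Irs2, the K165A points are the same without Irs2, and no H1093K point is filled.

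Igf1, the ligand, was lowest with the empty vector. Its brightest probe set, 1437401_at, read 28.7 and 48.1 in delta, 172 and 145 in WT, 158 and 132 in K165A, 81.0 and 71.2 in H1093K, and 392 and 354 on the arrays labelled deleted. The WT and K165A arrays overlapped each other and lay above both H1093K arrays, which lay above both delta arrays. Igf1 rose 3.25-fold in WT (log2 difference 1.70, 95% interval 1.25 to 2.16, adjusted p = 0.000586) and 2.99-fold in K165A (1.58, 1.13 to 2.04, adjusted p = 0.000884). In H1093K the difference from delta was 0.78 (0.32 to 1.24, adjusted p = 0.135) and did not pass, although the arrays did not overlap. A second probe set, 1452014_a_at, read 54.2 and 56.2 in delta and 124 and 92.1 in WT, a difference of 0.79 (adjusted p = 0.028), and 111 and 113 in K165A (0.84, adjusted p = 0.0214). Those calls of the second probe set were lost in 5 of 20 alternatives for WT (adjusted p 0.00842 to 0.193) and in 6 of 20 for K165A (0.00597 to 0.0922), among them leaving out either delta array. Another Igf1 probe set, 1419519_at, was too dim to be tested and read 46.9 to 80.6 over the 8 arrays of the vector groups, with WT just above delta and the other groups overlapping both, and 154 and 122 on the arrays labelled deleted.

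Igf1r, the receptor, differed less than any ligand or binding protein that passed. Probe set 1426565_at read 749.8 and 808 in delta, 818 and 848 in WT, 683 and 804 in K165A, 543 and 638 in H1093K, and 625 and 681 on the arrays labelled deleted. Both H1093K arrays lay below every array of delta, WT and K165A. Against delta the WT difference was 0.10 (-0.15 to 0.34, adjusted p = 0.644) and the K165A difference -0.07 (-0.32 to 0.17, adjusted p = 0.755), and neither passed. The H1093K difference was -0.39 (-0.64 to -0.15, adjusted p = 0.163), which passed only with the replicate number as a block (adjusted p = 0.0177; range over 21 alternatives 0.0177 to 0.586). The other probe set of Igf1r, 1452108_at, was too dim to be tested, with means of 57.8 to 67.0 and overlap between every pair of neighbouring groups.

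Igfbp2, a secreted binding protein of both IGF ligands, rose most. Its probe set read 41.9 and 27.8 in delta, 546 and 514 in WT, 296 and 248 in K165A, 51.7 and 34.0 in H1093K, and 3110 and 3185 on the arrays labelled deleted. Only the delta and H1093K arrays overlapped, and each other step in the order, from these to K165A, WT and the arrays labelled deleted, separated all arrays. Igfbp2 rose 10.8-fold in WT (3.44, 3.03 to 3.85, adjusted p = 4.44e-06) and 5.70-fold in K165A (2.51, 2.10 to 2.92, adjusted p = 2.01e-05). The sizes fell to 6.03-fold and 3.40-fold with a pseudocount of 64, since the delta signals are dim. H1093K differed from delta by 0.21 (-0.20 to 0.62, adjusted p = 0.737).

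Igfbp4, a binding protein that PAPP-A cleaves, had 6 probe sets, some of which carry suffixes that mark shared or less specific probes, so they are not independent readings. The brightest, 1437405_a_at, read 262 and 255 in delta, 573 and 727 in WT, 612 and 632 in K165A, 296 and 257 in H1093K, and 5199 and 5513 on the arrays labelled deleted. WT and K165A overlapped, delta and H1093K overlapped, and those pairs were apart. It rose 2.41-fold in WT (1.27, 1.01 to 1.53, adjusted p = 9.03e-05) and 2.32-fold in K165A (1.22, 0.96 to 1.48, adjusted p = 0.000121), with 0.09 in H1093K (-0.17 to 0.35, adjusted p = 0.845). Probe sets 1437406_x_at, 1423757_x_at and 1423756_s_at gave 1.56, 1.03 and 1.67 in WT and 1.51, 0.98 and 1.56 in K165A, all of which passed. For 1421992_a_at the differences were 0.73 in WT (adjusted p = 0.107) and 0.84 in K165A (adjusted p = 0.0704), which passed with the replicate number as a block (0.041 and 0.0238) and without either H1093K array (ranges over 20 alternatives 0.0276 to 0.387 and 0.0155 to 0.312). The dimmest, 1421991_a_at, was not tested and read 7.15 to 10.6 in the 4 vector groups, below the pseudocount.

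Igfbp7, a secreted protein of the extracellular matrix that binds IGFs weakly, moved the other way. Probe set 1423584_at read 5668 and 6750 in delta, 2056 and 2209 in WT, 2142 and 2365 in K165A, 5524 and 6096 in H1093K, and 1302 and 1563 on the arrays labelled deleted. The WT and K165A arrays were all below the delta and H1093K arrays, and within each of those pairs of groups the arrays overlapped. Igfbp7 fell 2.89-fold in WT (-1.53, -1.79 to -1.27, adjusted p = 2.73e-05) and 2.74-fold in K165A (-1.45, -1.71 to -1.19, adjusted p = 4.02e-05). In H1093K the difference was -0.09 (-0.35 to 0.17, adjusted p = 0.843). A dim probe set, 1423585_at, read 99.8 and 100.7 in delta, 52.2 and 35.0 in WT, 55.4 and 46.1 in K165A and 136 and 124 in H1093K. The dimmest, 1437804_at, stayed at 20.2 to 25.1 in these groups on all arrays but WT array 1, which read 76.9, and its groups overlapped.

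Igfbp5, a binding protein that attaches to matrix, gave probe sets that disagreed. The tested one, 1422313_a_at, read 242 and 57.8 on the delta arrays, a spread wider than the range of the other 8 arrays, 90.2 to 171, so nothing smaller than its interval could be resolved: the WT difference was 0.05 (-1.04 to 1.13, adjusted p = 0.971). The other, 1452114_s_at, was too dim to be tested and read 32.3 and 23.4 in delta, 56.4 and 62.5 in WT, 60.8 and 61.5 in K165A, and 34.6 and 25.5 in H1093K. On this probe set WT and K165A lay above delta and H1093K on every array; with no filter on low signals, the differences from delta were 0.79 in WT (adjusted p = 0.076) and 0.82 in K165A (adjusted p = 0.0678). On the linear scale its mean over the 10 arrays, 167, is the higher of both (129 for the tested one), with 649 and 667 on the arrays labelled deleted.

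Igfbp6, which prefers IGF2 over IGF1, was dim in all 4 vector groups: 51.3 and 43.1 in delta, 55.9 and 55.3 in WT, 32.0 and 45.5 in K165A, and 63.0 and 40.1 in H1093K. The differences from delta were 0.18 in WT (-0.28 to 0.64), -0.22 in K165A (-0.68 to 0.24) and 0.08 in H1093K (-0.38 to 0.54), and none passed. Igfbp3, the main carrier of IGFs in serum, read 1.76 and 1.89 in delta, 1.76 and 7.96 in WT, 3.37 and 25.2 in K165A, and 2.36 and 0.914 in H1093K. It was therefore at background in these groups, and no fold is given.

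**Figure D3:**
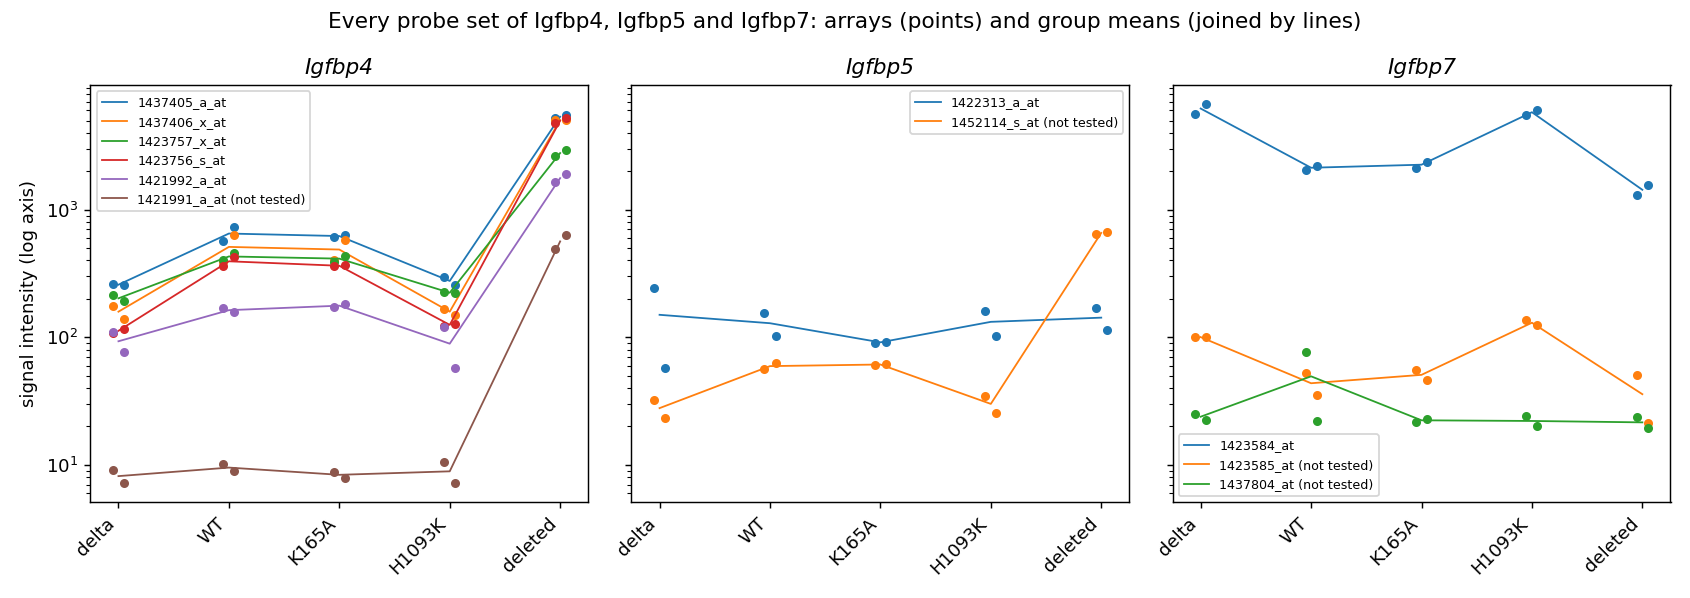
Every probe set of Igfbp4, Igfbp5 and Igfbp7 on each array (points, log axis of signal intensity) with group means joined by lines only to mark the probe set. The Igfbp4 probe sets other than 1421991_a_at share 1 order of vector groups in outline, while the Igfbp5 probe sets differ in the arrays labelled deleted, with means of 143 and 658.

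Irs1, the main docking protein of the insulin and IGF1 receptors, showed little spread within a group. It read 955 and 959 in delta, 1510.4 and 1495 in WT, 1643 and 1637 in K165A, 914 and 869 in H1093K, and 1637 and 1611 on the arrays labelled deleted. All WT and K165A arrays lay above all delta and H1093K arrays, K165A lay above WT, and H1093K lay below delta. Irs1 rose 1.56-fold in WT (0.64, 0.50 to 0.79, adjusted p = 0.000183) and 1.70-fold in K165A (0.77, 0.62 to 0.91, adjusted p = 5.64e-05). The H1093K difference of -0.10 (-0.25 to 0.05, adjusted p = 0.618) did not pass.

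Irs2, the related docking protein, had a different order of groups. It read 499 and 617 in delta, 847 and 877 in WT, 444 and 589 in K165A, 455 and 399.9 in H1093K, and 349 and 349 on the arrays labelled deleted. Only WT stood above all other arrays, and K165A overlapped delta and H1093K. Irs2 rose 1.54-fold in WT (0.62, 0.30 to 0.94, adjusted p = 0.0219), a call lost without delta replicate 1 (adjusted p = 0.127), WT replicate 1 (0.0944) or WT replicate 2 (0.111), within a range of 0.0062 to 0.127 over 21 alternatives. It did not pass in K165A (-0.12, -0.44 to 0.21, adjusted p = 0.688) or H1093K (-0.37, -0.69 to -0.04, adjusted p = 0.346).

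Set directly against each other, the groups given G9a split on the IGF axis between H1093K and the other forms. K165A and WT were not told apart by the test. Ehmt2 was also lower in H1093K than in WT by its brighter probe set (-0.43, adjusted p = 0.0185), while the dimmer one overlapped WT. The form of G9a and the Ehmt2 level cannot be told apart here, and the part of that level was not tested. In H1093K against WT, 9 of 14 member probe sets were lower and 1 higher, where 8.03% of all probe sets passed (3.98% lower and 4.05% higher; 14.3% with the block). Igfbp2 was 9.38-fold lower in H1093K (-3.23, -3.64 to -2.82, adjusted p = 9.11e-06; 5.58-fold with a pseudocount of 64), Igfbp4 2.27-fold (-1.18, adjusted p = 0.000161), Irs2 1.98-fold (-0.99, adjusted p = 0.00206) and Irs1 1.67-fold (-0.74, adjusted p = 8.88e-05). Igfbp7 was 2.71-fold higher (1.44, 1.18 to 1.70, adjusted p = 5.58e-05). The receptor and ligand also passed here, with -0.49 for Igf1r (-0.73 to -0.25, adjusted p = 0.0227) and -0.92 for Igf1 (-1.38 to -0.47, adjusted p = 0.022). Both of these calls were lost without WT replicate 1 (adjusted p = 0.101 and 0.165), WT replicate 2 (0.116 and 0.0652) or H1093K replicate 1 (0.169 and 0.0776), and that of Igf1 also without H1093K replicate 2 (0.118), with no filter (0.0548) or with quantile normalization (0.115), over ranges of 0.00123 to 0.169 for Igf1r and 0.00998 to 0.165 for Igf1.

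In K165A against H1093K, 7 member probe sets were higher and 1 lower, where 7.42% of all passed (3.53% higher and 3.89% lower; 13.6% with the block). Igfbp2 was 4.93-fold higher in K165A (2.30, 1.90 to 2.71, adjusted p = 4.83e-05; 3.15-fold with a pseudocount of 64), Igfbp4 2.19-fold (1.13, adjusted p = 0.000247) and Irs1 1.82-fold (0.87, adjusted p = 3.61e-05). Igfbp7 was 2.57-fold lower (-1.36, adjusted p = 7.43e-05). The Igf1 difference of 0.80 (adjusted p = 0.0432) was lost in 13 of 20 alternatives (adjusted p 0.0212 to 0.226), among them leaving out any WT, K165A, H1093K or deleted array. Igfbp4 by 1421992_a_at missed the threshold here (0.95, adjusted p = 0.0604) and in H1093K against WT (-0.84, adjusted p = 0.0895), and passed both with the block (0.018 and 0.0303; ranges over 20 alternatives 0.00597 to 0.283 and 0.00921 to 0.376). Irs2 did not pass (0.25, -0.07 to 0.58, adjusted p = 0.381), nor did Igf1r (0.32, 0.08 to 0.57, adjusted p = 0.121; 0.0155 with the block, and 0.0155 to 0.484 over 21 alternatives).

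In K165A against WT, limma called 0 of 14 member probe sets and 0 of all 13575 (0%), also with the block, while 429 (3.16%) had an unadjusted p under 0.05. The members among those 429 were Igfbp2 and Irs2. Igfbp2 was lower in both K165A arrays than in both WT arrays (-0.93, -1.34 to -0.52, adjusted p = 0.641, and 0.0969 to 1 over 20 alternatives), and so was Irs2 (-0.74, -1.06 to -0.41, adjusted p = 0.641, and 0.159 to 1 over 21). Neither difference passed. For Igfbp4, Igfbp7, Irs1 and Igf1 the intervals ran from -0.31 to 0.20, -0.18 to 0.34, -0.02 to 0.27 and -0.58 to 0.34, which leaves room for differences of those sizes.

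Taking WT and K165A together against delta and H1093K together, 10 member probe sets were higher and 1 lower, where 18.3% of all passed (8.47% higher and 9.78% lower; 27.6% with the block). This grouping was chosen with the group values known. Igfbp2 differed by 2.87 (2.58 to 3.16, adjusted p = 5.3e-07), all 5 tested Igfbp4 probe sets by 0.84 to 1.55, Igf1 by 1.25 (adjusted p = 0.000244), Irs1 by 0.76 (adjusted p = 2.8e-06) and Igfbp7 by -1.45 (adjusted p = 1.84e-06). Igf1r missed the threshold (0.21, 0.04 to 0.38, adjusted p = 0.093) and passed with the block (0.0128, and 0.0128 to 0.267 over 21 alternatives). Irs2 passed at 0.44 (adjusted p = 0.0151), although its arrays overlapped, and lost the call without WT replicate 2 (0.0521) or H1093K replicate 2 (0.0557), over a range of 0.0043 to 0.0557. With no filter on low signals, 2403 of all 22626 probe sets passed. Among them were Igfbp5 by 1452114_s_at (0.77, adjusted p = 0.0137) and Igfbp7 by 1423585_at (-1.055, adjusted p = 0.0138). The other member probe sets under the filter did not pass. The 4 WT and K165A arrays all lay above the other 4 vector arrays for 10.5% of all tested probe sets and all below for 11.5%.

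The arrays labelled deleted stood far from the vector groups on the binding proteins. Against delta, 10 member probe sets were higher and 2 lower, where 33.0% of all passed (15.6% higher and 17.4% lower), so passing is itself common here. Against WT, 9 were higher and 3 lower, where 32.4% of all passed (15.4% higher and 17.0% lower). Both counts of higher probe sets include those of Igf1 and Igfbp6, which were tested only because of these arrays. Igfbp2 was 62.9-fold above delta (5.97, adjusted p = 2.24e-08; 32.6-fold with a pseudocount of 64) and 5.80-fold above WT (2.54, adjusted p = 5.9e-06). Igfbp4 was 19.6-fold above delta (4.29, adjusted p = 1.35e-08) and 8.11-fold above WT. Igfbp6 read 2371 and 2369, 37.8-fold above delta (5.24, adjusted p = 1.06e-07, and 21.9-fold with a pseudocount of 64). It was bright enough for the test only because of these arrays. The filter thus favoured a high Igfbp6 level there, and the p-value is no separate support. Igfbp3 read 608 and 629 and Igfbp5 by 1452114_s_at 649 and 667, and with no filter on low signals, where 21.2% of all passed, both differed from delta (adjusted p = 8.53e-06 for Igfbp3, and 3.95, adjusted p = 3.07e-06, for Igfbp5). No size is given for Igfbp3, whose delta signals lay under the pseudocount. The tested Igfbp5 probe set did not pass (0.18, -0.91 to 1.26, adjusted p = 0.817). Without delta replicate 1 it differed by 1.08 (adjusted p = 0.0418; 0.0418 to 0.941 over 19 alternatives).

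The ligand, Igfbp7 and the receptor substrates on the arrays labelled deleted lay on different sides of WT. Igf1 was 7.26-fold above delta (2.86, adjusted p = 4.85e-06, and 4.28-fold with a pseudocount of 64) and 2.23-fold above WT (1.16, adjusted p = 0.00195). Like Igfbp6, it was bright enough for the test only because of these arrays. The filter thus favoured a high Igf1 level there, and these p-values are no separate support. Igfbp7 was 4.30-fold below delta (-2.10, adjusted p = 8.56e-07) and 1.49-fold below WT (-0.57, adjusted p = 0.00441). Irs1 lay above delta by 0.75 (adjusted p = 1.79e-05) and did not pass against WT (0.11, -0.04 to 0.26, adjusted p = 0.228). Irs2 was lower than in delta (-0.65, adjusted p = 0.00706; 0.057 without delta replicate 2, and 0.00195 to 0.057 over 20 alternatives) and in WT (-1.27, adjusted p = 0.000132). Igf1r did not pass against delta (-0.25, -0.49 to -0.01, adjusted p = 0.109; 0.0195 with the block, and 0.0195 to 0.365 over 20 alternatives). It was lower than in WT (-0.35, adjusted p = 0.0363), a call lost in 6 of 20 alternatives, among them leaving out any WT or deleted array. These differences stand beside the Ehmt2 level, the Dcn, Lum and Krt8 levels (Krt8 1577 and 1630, against 57.2 to 145 elsewhere), and a summed smooth muscle signal of 9798 and 10193, against 13148 to 20182 elsewhere, and the part of those in them was not tested.

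Other genes of the pathway came from a list of 50, of which 43 were on the array and 33 were bright enough to test. In WT against delta 1 rose and 7 fell, in K165A against delta 1 rose and 4 fell, and in H1093K against delta 0 rose and 1 fell, where 11.9%, 11.3% and 0.818% of all probe sets passed. The median difference over the 33 was -0.05 in WT, -0.07 in K165A and -0.05 in H1093K, against -0.003, 0.005 and -0.002 over all probe sets. On the arrays labelled deleted 9 were higher and 7 lower than in delta, where 33.0% of all passed.

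Igf2, the other ligand, read 120 and 24.2 in delta, 123 and 146 in WT, 113 and 127 in K165A, 77.1 and 59.8 in H1093K, and 1485 and 1731 on the arrays labelled deleted. It did not pass in WT (1.02, 0.06 to 1.99, adjusted p = 0.167), K165A (0.88, adjusted p = 0.242) or H1093K (0.19, adjusted p = 0.924), with the delta arrays far apart. On the arrays labelled deleted Igf2 was 21.9-fold above delta (4.45, 3.49 to 5.42, adjusted p = 3.84e-05). Like Igf1 and Igfbp6, it was bright enough for the test only because of those arrays. The filter thus favoured a high level there, and the p-value is no separate support. Igf2r, which clears IGF2 and carries lysosomal enzymes, read 1210 and 1215 in delta, 911 and 945 in WT, 1046 and 993 in K165A, and 1133 and 1145 in H1093K. It fell in WT (-0.38, -0.53 to -0.23, adjusted p = 0.00627) and K165A (-0.25, -0.40 to -0.09, adjusted p = 0.047) and did not pass in H1093K (-0.09, adjusted p = 0.689). Its other tested probe set gave -0.25 in WT (adjusted p = 0.131) and -0.28 in K165A (adjusted p = 0.097), and neither passed. The insulin receptor, Insr, was under the filter, with means of 38.5 to 73.5 by its brighter probe set.

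Adaptors that bind the activated receptors moved in opposite directions. Grb10, an adaptor that restrains insulin and IGF1 receptor signalling, read 3093 and 3197 in delta, 4395 and 4785 in WT, 4306 and 4369 in K165A, and 2859 and 2996 in H1093K. It rose 1.46-fold in WT (0.54, 0.37 to 0.71, adjusted p = 0.0015) and 1.38-fold in K165A (0.46, adjusted p = 0.00393), and was lower in H1093K than in WT (-0.65, adjusted p = 0.00056). Grb14, a relative of Grb10, read 492 and 468 in delta, 196 and 208 in WT, 214 and 187 in K165A, and 248 and 265 in H1093K. It fell 2.28-fold in WT (-1.19, -1.45 to -0.92, adjusted p = 0.000154) and 2.29-fold in K165A (-1.20, adjusted p = 0.000151), and also 1.82-fold in H1093K (-0.86, -1.12 to -0.60, adjusted p = 0.0159), where it did not pass against WT (0.33, adjusted p = 0.144). Grb14 was the only listed pathway gene past the threshold in H1093K against delta. That call was lost when only the arrays compared were fitted, where 0 of 13575 probe sets passed. Calls of the tested pathway genes were not otherwise followed through the alternatives.

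Of the other pathway genes that passed, Eif4ebp1, a translation repressor held in check by mTOR, fell in WT (-0.54, adjusted p = 0.0104) and K165A (-0.56, adjusted p = 0.00944), as did Phlda3, which competes with AKT for membrane lipid (-0.46, adjusted p = 0.00709, and -0.58, adjusted p = 0.002). Only in the WT comparison did Htra1, a secreted protease (-0.40, adjusted p = 0.0201), Igf2bp1, which binds Igf2 mRNA (-0.38, adjusted p = 0.0485), and Sos1, an activator of RAS (-0.59, adjusted p = 0.0476), pass; their K165A differences from WT were not past the threshold. The other tested Htra1 probe set did not pass in WT (-0.02, -0.60 to 0.55, adjusted p = 0.972), where its arrays read 670 and 339. Pappa, the protease that cleaves Igfbp4, was under the filter and is named because of its values. It read 272 and 275 in delta, 39.9 and 57.9 in WT, 17.6 and 59.9 in K165A, 153 and 148 in H1093K, and 71.6 and 105 on the arrays labelled deleted. With no filter on low signals, where 6.44% of all passed in WT and 5.94% in K165A, Pappa was lower by -2.17 in WT (adjusted p = 0.00798) and -2.52 in K165A (adjusted p = 0.00365), and did not pass in H1093K, where 0.265% of all passed (-0.80, adjusted p = 0.591). The delta arrays were thus the highest for Pappa and the lowest for Igf1, with the H1093K arrays between delta and WT for both.

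**Figure D4:**
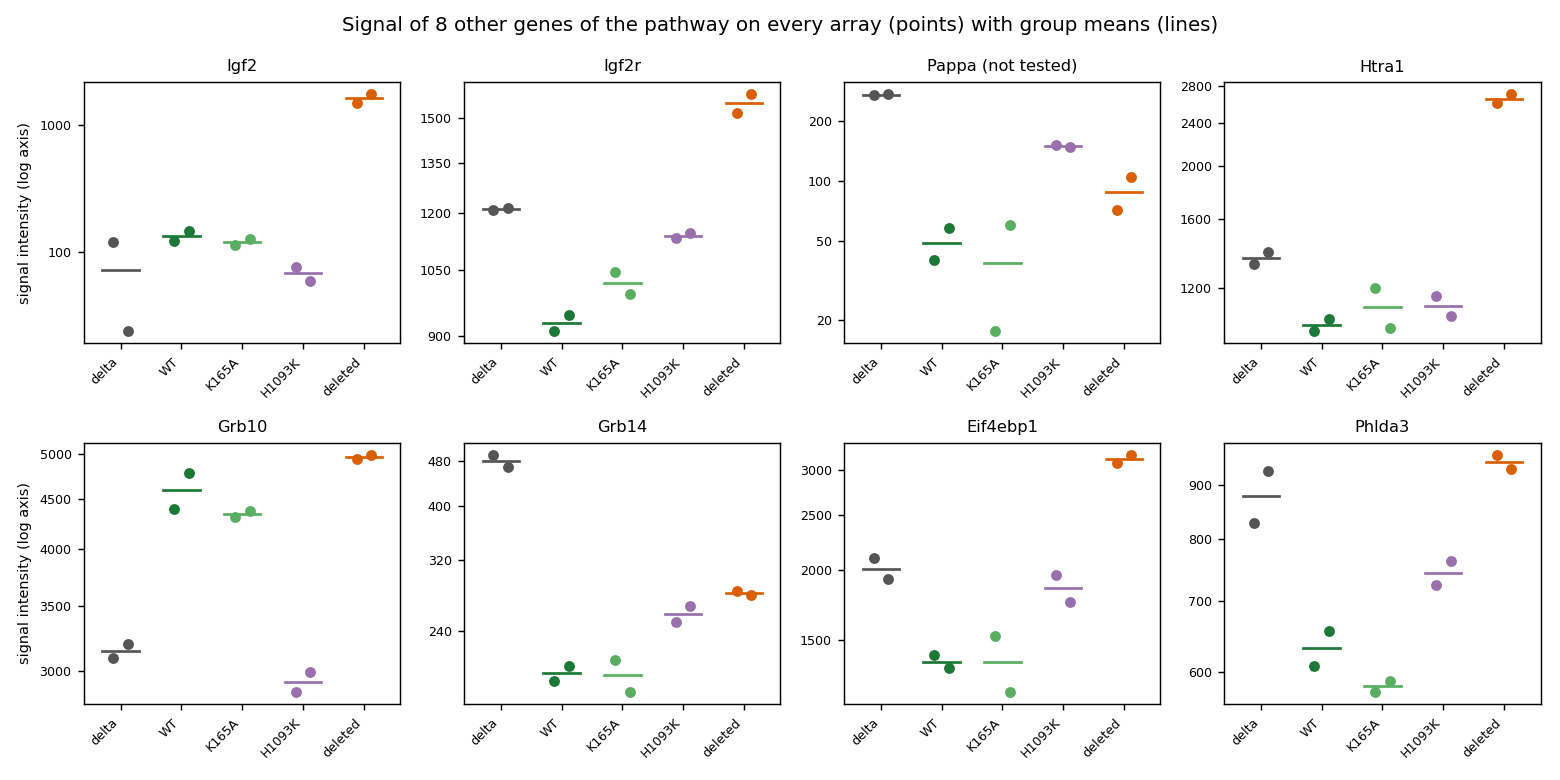
Signal intensity of 8 other genes of the pathway on every array, on log axes that differ between panels, with 1 point per array and a line at each group mean. Grb10 lies higher in WT and K165A than in delta and H1093K, Grb14 and Pappa are highest in delta, and Igf2 is highest on the arrays labelled deleted.

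The genes whose pattern over the 10 arrays was most like those of the 2 members with the smallest p among the 4 vector groups were found by Pearson's r of log2(signal + 16), as a description. Igfbp4 was among the 2 by its probe set 1423756_s_at (limma F test, adjusted p = 7.94e-06). By 1437405_a_at, which stands for the gene elsewhere and whose pattern was compared, its adjusted p of 6.04e-05 in limma's F test comes after those of Igfbp7 (1.69e-05) and Irs1 (2.55e-05). For Igfbp2 these were Peg3 (0.989), Gas1 (0.985), Ahr (0.984), Bicc1 (0.983) and Cxcl12 (0.983). Their correlations over the 8 arrays without those labelled deleted were 0.953 to 0.981. Peg3, for example, had mean signals of 167 with the empty vector, 736 with WT, 658 with K165A, 137 with H1093K and 3144 on the arrays labelled deleted. For Igfbp4 they were Pdlim4 (0.993), Ehmt2 (0.989), Adam15 (0.988), Ptpn13 (0.986) and Syce2 (0.986), with 0.888 to 0.962 over the 8 arrays. The arrays share their groups and the high level on those labelled deleted, and these correlations say nothing of shared function or control.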

How the data were processed

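The deposited table holds signal intensities on a linear scale, 1 per probe set and array, made by the authors with GCOS 1.4, per the submitters' processing notes. Its background and scaling options are not given in the sources used here; the values already had 1 common trimmed mean (2% trimmed from each end). The number of arrays, 2 a group, limits the precision.

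Signals were taken as log2(signal + 16), a pseudocount of 16, and 13575 probe sets whose mean lay above the 40th percentile were kept. A model with 1 mean per group over all 10 arrays was fitted with limma 3.58.1 in R 4.3.3 (eBayes with an intensity trend), tested on simulated data, with Benjamini-Hochberg adjustment over all probe sets kept and a threshold of 0.05. No exact permutation test was used, since 2 arrays against 2 cannot go below a two-sided p of 0.333. Replicate numbers come from the titles. Deviations of same-numbered arrays correlated at 0.234 to 0.527 in all 10 pairs of groups, so the arrays may be paired. The main fit, with its intervals and p-values, does not use this pairing. Fits with the number as a block are given where they change a member call.

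A gene with several probe sets is represented by that with the highest mean log2 signal. Of the listed pathway genes, those past the threshold in a vector comparison are named, and Igf2, Igf2r and Insr in any case. Members and lists were chosen with earlier results of these data known. Of the 22626 probe sets that are no array controls, 20380 have 1 gene in the platform annotation, 691 have several, and the rest are unnamed here. Alternatives were another pseudocount, filter or normalization, the block, a fit without the trend or other arrays, and leaving out each array; a filter on linear signals was added after seeing the data. Protein sequences were not used here.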

Additional observations from a re-analysis of the deposited data

How the results depend on the processing

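Of 72 member differences past the threshold, 62 stayed past it under every alternative run, 10 lost it under at least 1, and 0 reversed; of 54 not past it, 9 gained it under at least 1. An alternative that did not test a probe set is not counted for it. The filter at the 60th percentile left out the tested probe sets of Igf1, Igfbp2, Igfbp5 and Igfbp6, and 1421992_a_at of Igfbp4. Fits without some arrays kept the filter set over all 10, so Igf1 and Igfbp6 stayed in without the arrays labelled deleted. With the replicate block, 8 member calls were gained (Igf1r in 4 comparisons and Igfbp4 by 1421992_a_at in 4), 0 were lost, and no other member call changed. The count for H1093K against delta went from 0 to 1. With a filter at the 60th percentile, which tests fewer probe sets, the count of member probe sets was 7 for WT and K165A against delta and H1093K (11 as reported), 7 for deleted against delta (12) and 7 for deleted against WT (12). Of all 9050 probe sets then tested, 1935, 3379 and 3384 passed in these comparisons. Apart from leaving out 1 array, the lowest member counts were 7 for WT against delta (10 as reported) and 6 for K165A against delta (9). They were 8 for H1093K against WT (10) and 6 for K165A against H1093K (8). Leaving out 1 array at a time gave 8 to 11 member probe sets for WT against delta, 8 to 10 for K165A against delta, 0 to 0 for H1093K against delta and for K165A against WT, 8 to 10 for H1093K against WT, 7 to 8 for K165A against H1093K, 10 to 11 for WT and K165A against delta and H1093K, 11 to 13 for deleted against delta, 10 to 12 for deleted against WT, and 8 to 10 for the F test among the 4 vector groups (10 as reported).

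Over all probe sets, WT against delta gave 1616, and 781 to 1566 without 1 array or 1092 to 2813 otherwise. K165A against delta gave 1529, and 823 to 1351 or 805 to 2678. H1093K against delta gave 111, and 7 to 88 or 0 to 471. H1093K against WT gave 1090, and 548 to 1034 or 865 to 1945; K165A against H1093K gave 1007, and 542 to 948 or 663 to 1852. The pooled comparison gave 2478, and 1776 to 2281 or 1935 to 3746. The F test gave 1570, and 1073 to 1298 or 1254 to 3011. Of the 72 folds, 9 moved by over 1.5 times, all with a pseudocount of 64, which shrinks dim signals (Igfbp2, Igf1 and Igfbp6). Signal over background limits Igfbp3, Igfbp6 and the dim probe sets of Igf1, Igfbp4, Igfbp5 and Igfbp7 in the vector groups; the causes of the other changes were not tested.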
